A study of Homo sapiens with 10 samples.

Results

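HSP90AA1 and HSP90AB1 encode the 2 cytosolic HSP90 chaperones, and the results here describe the HSF1 peaks at their starts. Members were fixed by position: any peak of an HSF1 list that overlapped 5 kb either side of the hg19 start of HSP90AA1 (short transcript, chr14:102553371, minus strand), of its long transcript (near chr14:102606000) or of HSP90AB1 (chr6:44214848, plus strand). This gave 15 of the 8124 listed peaks, and they formed 2 of the 6597 regions obtained by joining peaks that overlap between lists. HSF1 was mapped by ChIP-seq, in which DNA bound by a protein is recovered with an antibody and sequenced, in HCT116, an established human colon cancer line. The line was WT or FBXW7 KO, FBXW7 being the substrate-binding part of a ubiquitin ligase. Each was untreated or exposed to heat shock at 42 °C for 1 h. All 6 precipitations used 5 µg of the same HSF1 antibody. The groups were WT heat shock (2 libraries), WT untreated (1), FBXW7 KO heat shock (2) and FBXW7 KO untreated (1). Whether the KO line is a single clone is not given in the sources used here. The labels do not say whether the 2 heat shock replicates of a line were grown separately, so p-values measure only the spread between these samples, which may be technical. Below, values of a line are given in the order heat shock replicate 1, heat shock replicate 2, untreated.

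HSP90 is an ATP-driven chaperone that acts late in the folding of client proteins such as kinases and steroid hormone receptors. HSP90AA1 encodes the alpha form, known as the stress-inducible one, and HSP90AB1 the beta form, known as abundant in unstressed cells. HSP90 is also known to hold HSF1 in an inactive state, so both genes belong to a feedback loop on their own activator. HSF1 binds DNA as a trimer at heat shock elements, which are runs of the unit NGAAN in alternating orientation.

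RefSeq promoter sequences were matched to both symbols, 2 windows for HSP90AA1 and 3 for HSP90AB1, each holding the 250 bases before a start and 50 after it (build GRCh38.p14). The build differs from that of the peaks, so no coordinate was carried over and positions are counted from each RefSeq start. These stretches are shown because they hold the elements that the peaks are set against below. Capitals mark a 3-unit heat shock element, that is TTC, GAA and TTC with 2 bases of any kind between neighbours (or its reverse complement, GAA, TTC and GAA), and sequences run 5′ to 3′ on the gene's strand. They lie at chr14:102087045-102087204 (minus), chr6:44246941-44247100 (plus) and chr6:44247753-44247912 (plus) of GRCh38.p14.
HSP90AA1 short transcript: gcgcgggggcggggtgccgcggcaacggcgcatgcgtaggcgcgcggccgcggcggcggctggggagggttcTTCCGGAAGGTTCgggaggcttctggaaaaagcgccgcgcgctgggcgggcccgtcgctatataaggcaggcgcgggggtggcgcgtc
HSP90AB1, start 2: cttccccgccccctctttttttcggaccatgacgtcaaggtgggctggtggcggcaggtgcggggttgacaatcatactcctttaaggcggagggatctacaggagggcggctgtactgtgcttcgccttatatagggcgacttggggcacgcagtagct
HSP90AB1, start 3: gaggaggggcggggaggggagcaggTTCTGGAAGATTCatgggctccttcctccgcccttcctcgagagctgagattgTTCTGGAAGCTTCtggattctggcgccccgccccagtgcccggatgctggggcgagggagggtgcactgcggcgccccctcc

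The 2 genes differed in where their windows held the element. The short start of HSP90AA1 had a single 3-unit element, TTCCGGAAGGTTC, from 88 to 76 bases before the start, followed by the 2-unit match TTCTGGAA from 68 to 61 bases before it. The letters between the 2 matches are gggaggc, with gag where a GAA unit would join them into 1 run. The exact search therefore lists them apart. The window of its long start had none. For HSP90AB1 the first and second windows had no 3-unit element and no 2-unit match (TTCNNGAA or GAANNTTC, each its own reverse complement). The third window had a pair of 3-unit elements, TTCTGGAAGATTC from 165 to 153 and TTCTGGAAGCTTC from 112 to 100 bases before that start. Of 35116 RefSeq windows of the same 300 bases, 172 (0.49%) held a 3-unit element on either strand, 14 (0.0399%) held at least 2, and 4737 (13.5%) held a 2-unit match, which the 3-unit elements contain. The letters TATAAA were in none of the 5 windows and in 7.33% of all windows. Only these exact letters were sought, so close variants were missed. The stretches above hold tatataa before the short start of HSP90AA1 and tatatag before start 2 of HSP90AB1. A match is a description of letters and not a shown binding site.

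An HSF1 peak lay at the short start of HSP90AA1 and at the start of HSP90AB1 in 6 of 6 lists, whatever the line or treatment. Both regions were among the 37 (0.561% of 6597) found in every list. The long start of HSP90AA1 had no peak within 5 kb in any of the 6 lists. The nearest peak to it, other than those of the short start, was 18.3 kb upstream in KO heat shock replicate 2, with a score of 58.65 and rank 1537 of 3257. A missing peak fell below the caller's limit and does not show that HSF1 was absent. The read depth of each library is unknown. The WT lists held 225, 131 and 79 peaks and the KO lists 1566, 3257 and 2866.

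HSP90AA1 was one of the 4 highest-ranked entries of every list. Its score was 497.70, 330.27 and 362.28 in the WT libraries and 1837.41, 3100.00 and 3100.00 in the KO libraries. Scores are the authors' own values, and whether they share a scale across libraries is unknown, so they are read within a list only. The value 3100.00 was shared by 3 peaks of KO heat shock replicate 2 and by 4 of KO untreated, so ranks at that value do not order the peaks. The score itself may be saturated there, although the highest entry of KO heat shock replicate 2 was 3188.49. HSP90AA1 scores, shares and relative scores of these 2 libraries are given with that limit. The ranks of HSP90AA1, with 1 the highest score, were 3, 4 and 4 in the WT libraries and 3, 2 and 1 in the KO libraries. WT and KO ranks overlapped after heat shock (exact permutation test, two-sided, p = 0.667, with 0.333 the smallest that 2 libraries against 2 can give). Ranks favouring KO without overlap were found at 25% of the 56 regions present in all 4 heat shock lists, and ranks favouring WT at 42.9%; neither gene was in either set.

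HSP90AB1 ranked 7 in 5 lists and 18 in the remaining one, WT untreated. Its highest peak scored 372.66, 264.68 and 128.13 in the WT libraries and 1419.38, 2462.26 and 2286.86 in the KO libraries. None of these scores was tied with another peak of its list. The untreated WT library was thus the low one for this gene, and both WT heat shock libraries ranked it as the KO lists did. After heat shock its log2 rank differed by 0.00 between the lines.

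**Figure D1:**
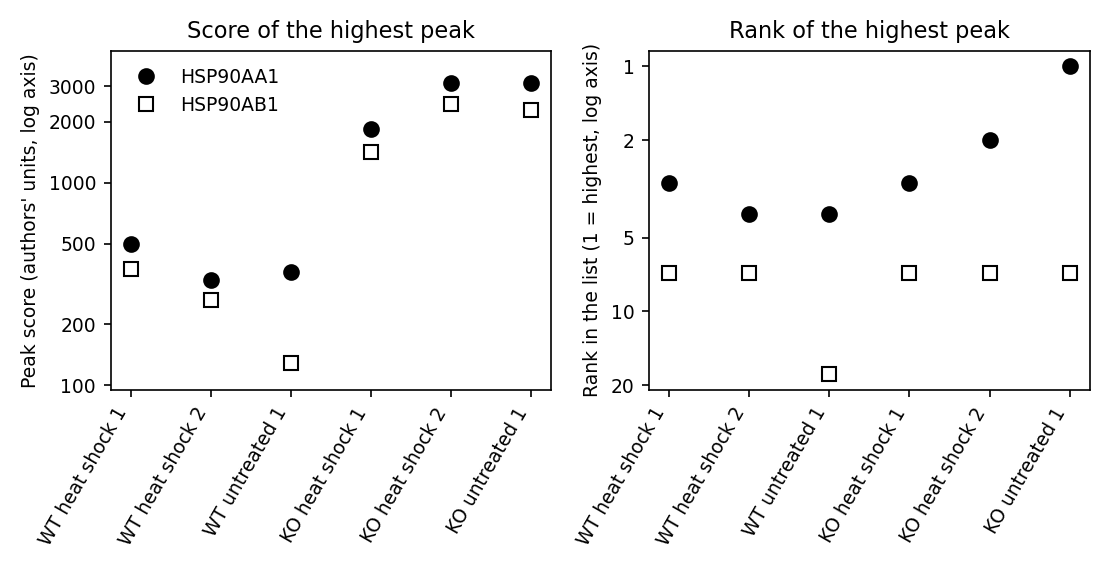
Score (left, authors' units, log axis) and rank in the list (right, 1 at the top, log axis) of the highest peak at HSP90AA1 (filled circles) and HSP90AB1 (open squares), 1 point per library. HSP90AA1 lies above HSP90AB1 in all 6 libraries, and the gap in score is widest in WT untreated, at 362.28 against 128.13. The ranks are 4 and 18 in WT untreated and 1 and 7 in KO untreated. Rank 1 in KO untreated is shared by 4 peaks tied at 3100.00 and is the smallest number of the tie, so the sizes of these 2 rank gaps are not compared.

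Within every list the HSP90AA1 peak scored above the HSP90AB1 peak. The HSP90AB1 score as a share of that of HSP90AA1 was 74.9%, 80.1% and 35.4% in the WT libraries, and 77.2%, 79.4% and 73.8% in the KO libraries. WT untreated was the low one. The shares of 79.4% and 73.8% are taken of the tied score of 3100.00, and would be lower if that score is saturated. The mean log2 ratio of HSP90AA1 to HSP90AB1 was 0.56 ± 0.46 (SD, n = 6), higher in 6 of 6 libraries (exact permutation test with the genes exchanged within each library, two-sided, p = 0.0312, the smallest that 6 libraries can give). Benjamini-Hochberg adjustment over all 7 tests run gave 0.219. The 6 libraries come from 4 groups, and in 2 of them the HSP90AA1 score is the tied value. Without WT untreated the mean was 0.38 (exact permutation p = 0.0625), and with both HSP90AB1 peaks of the KO lists summed it was 0.32 (exact permutation p = 0.281).

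Heat shock and untreated lists were compared through scores divided by the median score of the 37 shared regions in the same list, called relative scores here. A region missing from an untreated list is outside these 37, however high it scored after heat shock. The 4 heat shock lists had 56 regions in common, the 37 included. Positions and percentages in this paragraph therefore hold among the 37 only, and do not order the gain on heat shock over all HSF1 regions. For HSP90AB1 in WT cells the relative score was 2.74 and 2.38 after heat shock and 1.23 untreated, a mean difference of 1.06 on the log2 scale, which was number 3 of the 37 regions from the highest (their range was −1.70 to 1.34 and their median 0.04). Both heat shock libraries lay above the untreated one for this gene, as they did at 48.6% of the 37 regions. In KO cells its relative score was 2.67 and 2.42 after heat shock and 2.18 untreated, a log2 difference of 0.22, in position 12 of 37. Both KO heat shock libraries lay above untreated at 45.9% of the regions, a set that included both genes. The HSP90AA1 relative score was 3.66 and 2.98 after heat shock and 3.47 untreated in WT cells, so the untreated value lay between the replicates, as at 16.2% of the regions. In KO cells it was 3.46 and 3.05 after heat shock and 2.95 untreated (log2 difference 0.14). The values 3.05 and 2.95 come from the same tied and possibly saturated score of 3100.00, divided by list medians of 1017.1 and 1050.9. Their order is set by those medians alone, and HSP90AA1 is in the set of 45.9% only through that order. Untreated groups have 1 library each, so these comparisons have no test.

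**Figure D2:**
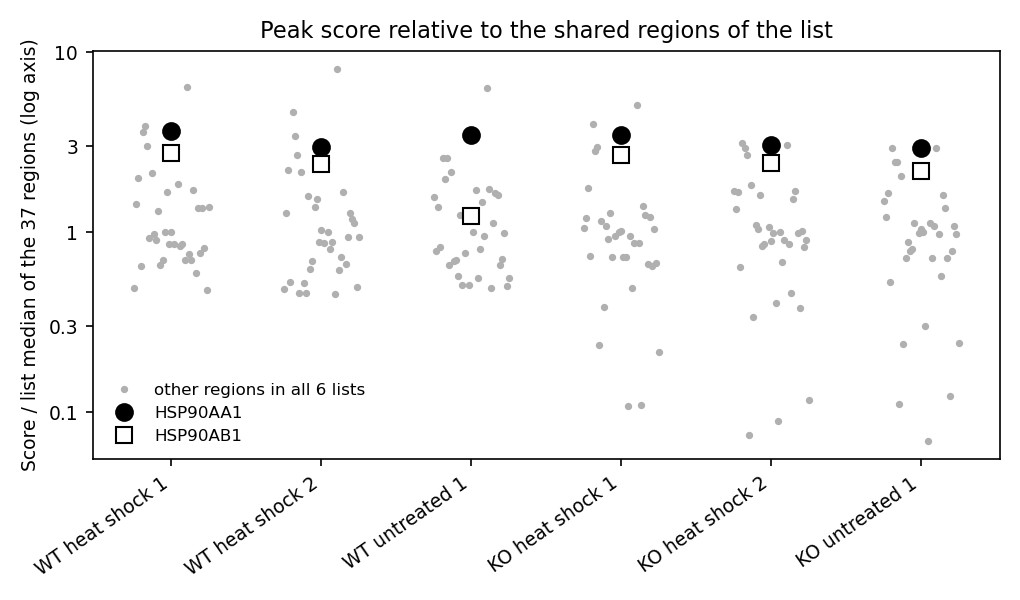
Peak score divided by the median of the 37 shared regions of the same list (log axis) for each library. Grey points are the other regions with a peak in all 6 lists. HSP90AA1 (filled circles) lies between 2.95 and 3.66, of which 2.95 and 3.05 in KO untreated and KO heat shock replicate 2 come from a tied, possibly saturated score, while HSP90AB1 (open squares) lies at 1.23 in WT untreated and between 2.18 and 2.74 elsewhere.

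At HSP90AA1 a single peak covered the short start in all 6 lists. Its width was 1537, 1587 and 1656 bp in the WT libraries and 800, 939 and 758 bp in the KO libraries. The centre lay 150, 139 and 147.5 bp upstream of the start in the WT libraries and 144.5, 219 and 133.5 bp upstream in the KO libraries. Centres of the lines overlapped after heat shock, at −181.8 ± 52.7 bp in KO and −144.5 ± 7.8 bp in WT (SD, n = 2 in each line; exact two-sided permutation p = 0.667). Without KO heat shock replicate 2 the means differed by 0 bp. All 6 peaks shared the stretch from 512 bp upstream to 245 bp downstream of the start (chr14:102553126-102553883), which is the whole KO untreated peak. If the hg19 short start and the RefSeq short start are the same base, which was not checked by conversion, the 3-unit element lay inside all 6 peaks, from 51.5 to 137 bp downstream of the peak centre.

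At HSP90AB1 the KO lists held 2 peaks on either side of the start where the WT lists held 1 across it. The upstream KO peak was centred 634.5, 613 and 610 bp before the start in the KO libraries and measured 560, 755 and 679 bp. The downstream peak was centred 644, 673 and 686.5 bp after the start and measured 531, 515 and 608 bp. The centres of the pair were 1278.5 to 1296.5 bp apart. Neither peak reached the start, which lay in the gap of 733, 651 and 653 bp in 3 of 3 KO lists. The upstream peak was the higher: the downstream peak scored 574.48, 1244.95 and 747.61, or 40.5%, 50.6% and 32.7% of the upstream score. Downstream ranks were 22, 18 and 45, so that both entries stood high in each KO list. The WT peak measured 2665, 2730 and 2801 bp. Its centre lay 64 bp upstream, 44.5 bp downstream and 53 bp downstream of the start, in that order.

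**Figure D3:**
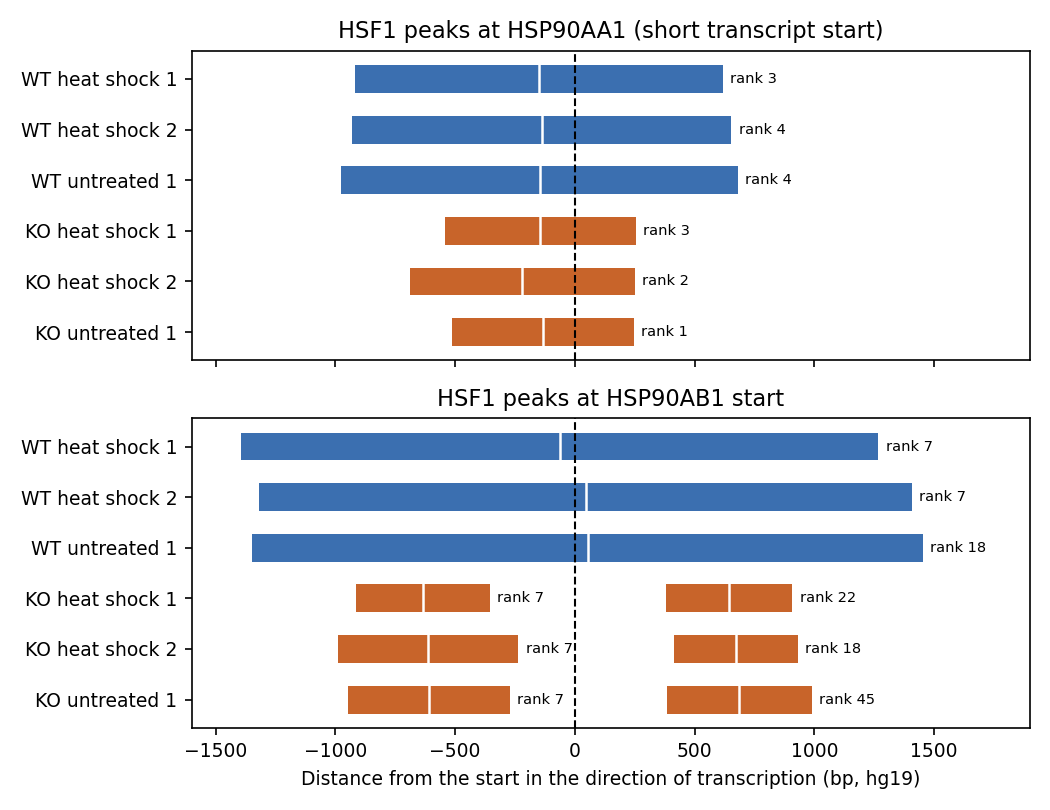
Extent of each HSF1 peak (bars; blue WT, orange KO) relative to the start (dashed line, 0 bp), in the direction of transcription, with peak centres as white lines and the rank in the list beside each bar. At HSP90AA1 every peak spans the start; at HSP90AB1 the WT peaks span it and the KO peaks flank it, leaving a gap of 651 to 733 bp.

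Each of the KO peaks lay inside the WT peak at its gene, in 9 of 9 pairings of a KO peak with a WT library for HSP90AA1 and 18 of 18 for HSP90AB1. The pairings reuse the same libraries and are not independent. How often other shared regions were nested in this way was not computed. WT peaks were the wider at 100% of the 56 regions in all 4 heat shock lists, so the nesting is not read as particular to these genes. At HSP90AB1 the WT peaks extended 330 to 482 bp further upstream than the upstream KO peak and 278 to 544 bp further downstream than the downstream one. At HSP90AA1 they extended 230 to 463 bp further upstream and 363 to 435 bp further downstream. Splitting of 1 WT peak into several KO peaks was not particular to HSP90AB1: 7 of the 37 shared regions (18.9%), HSP90AB1 included, had at least 2 peaks in every KO list and 1 in every WT list. Besides HSP90AB1, exactly 2 peaks in every KO list were found only at chr19:2677619-2680282 and chr19:5863711-5866089. The remaining regions of the 7 had 3 to 9 peaks in the KO list with the most. The deposited lists give no summit and no signal, so the shape of the WT signal between the positions of the KO peaks is not analysed here.

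If the hg19 start of HSP90AB1 is taken as the second of its 3 RefSeq starts, an assignment chosen after the values were seen and not checked by conversion, the other starts stand 907 bp before and 842 bp after it. The first then lay inside the upstream peak and the third inside the downstream peak in 3 of 3 KO lists, and the second in neither. In KO heat shock replicate 1 the edge of the upstream peak was at −914 bp, close to the first start. A small difference between the hg19 and RefSeq starts could place the first start outside that peak. Both 3-unit elements of the third window, at 677 to 689 and 730 to 742 bp after the second start, lay inside the downstream peak in 3 of 3 KO lists and inside the single peak in 3 of 3 WT lists. The KO peak centre was from 39 bp before to 3.5 bp after the middle of the first element, TTCTGGAAGATTC, and from 92 to 49.5 bp before the middle of the second, TTCTGGAAGCTTC. With the first or the third RefSeq start as the hg19 start, an element lay inside a KO peak in 0 of 3 lists, so the placement rests on that assignment. The windows covered only 57 to 148 bp of the upstream KO peak, so the letters under most of that peak, the higher of the pair, are not described here.

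WT peaks were wider than KO peaks at both genes. After heat shock the HSP90AA1 width was 1562 ± 35.4 bp in WT and 869.5 ± 98.3 bp in KO (SD, n = 2 each; 1.80-fold; exact permutation test, two-sided, p = 0.333, adjusted 0.667 over 6 tests). For the highest HSP90AB1 peak it was 2697.5 ± 46.0 bp against 657.5 ± 138 bp (4.15-fold; exact permutation p = 0.333, adjusted 0.667). The groups did not overlap at either gene, as at 100% of the 56 regions in all 4 heat shock lists, so the direction is that of the lists as a whole. With KO peaks closer than 1000 bp joined, the HSP90AB1 difference went from −2.05 to −0.53 on the log2 scale. Among the 37 shared regions HSP90AB1 was in position 5, 4 and 4 by width in the WT lists, while its highest KO peak was in position 12, 13 and 16. HSP90AA1 was in position 11, 8 and 14 of the WT lists and 2, 4 and 7 of the KO lists. The centre of the highest HSP90AB1 peak was −623.8 ± 15.2 bp from the start in KO and −9.75 ± 76.7 bp in WT after heat shock (SD, n = 2 each; exact permutation p = 0.333, adjusted 0.667). Centres of the lines did not overlap, in either direction and by any distance, at 42.9% of the 56 regions. Regions with a shift as large as that of HSP90AB1 were not counted. After joining, the centres differed by −6.5 bp (exact permutation p = 1).

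**Figure D4:**
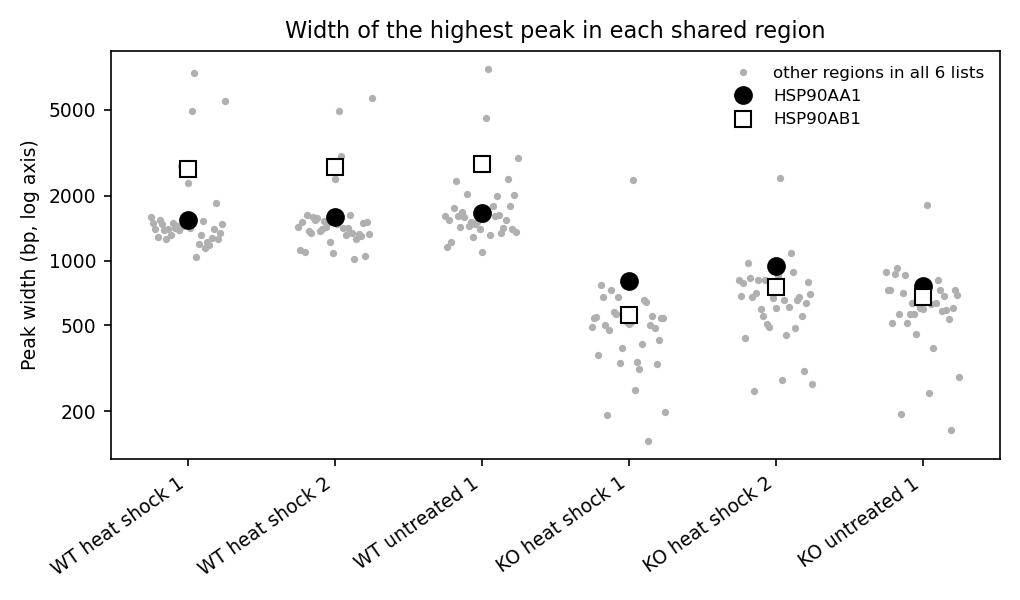
Width in bp (log axis) of the highest peak in each of the 37 regions shared by all 6 lists, by library. HSP90AB1 (open squares) is among the 5 widest of each WT list at 2665 to 2801 bp and in position 12 to 16 in the KO lists, while HSP90AA1 (filled circles) runs from 1537 to 1656 bp in WT and 758 to 939 bp in KO.

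Other entries in the surroundings of both genes are listed here without a comparison to the density of peaks elsewhere. Within 100 kb of the short HSP90AA1 start and of the HSP90AB1 start, and outside the 5 kb windows, 4 peaks were listed, all in KO heat shock replicate 2, the longest list. Their scores were 50.50 and 58.65 at chr14:102478101-102478296 and chr14:102624231-102624421, and 52.85 and 56.50 at chr6:44139103-44139286 and chr6:44251786-44251915, with ranks between 1537 and 3120. In the order of protein-coding genes in RefSeq (GRCh38.p14), HSP90AA1 stands between DYNC1H1 and WDR20 and HSP90AB1 between SLC29A1 and SLC35B2.

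Ranks most like those of HSP90AA1 over the 6 lists, among the 36 other shared regions, were at chr13:31190920-31192725 (mean absolute difference of 0.55 on the log2 scale), chr19:1353842-1355364 (0.76) and chr13:34116222-34117822 (1.09). For HSP90AB1 they were at chr12:133286374-133287943 (0.38), chr3:185655323-185656760 (0.58) and chr13:34116222-34117822 (0.58). The first of the HSP90AB1 set ranked 15 in WT untreated and 8 to 12 in the other lists, and the second ranked 20 and 10 to 14. Both stood lowest in WT untreated, as HSP90AB1 did, a likeness by which they were chosen. No hg19 annotation was used, so no gene was assigned to these regions, and other HSP90 family members and co-chaperones are not described here.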

How the data were processed

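Peak lists of 6 HSF1 libraries were used; the 4 input samples are not analysed here. A list has 5 columns without a header: chromosome, start, end, name and the authors' deposited peak score. Each was called for 1 library against the input of its line and condition, per the file labels. The submitters' processing notes name CASAVA, Bowtie 0.12.7, MACS 1.4.2 and hg19, without roles or settings. The lowest score was 50.00 to 50.44 in each list. The narrowest peak was 561 to 714 bp in a WT list and 59 to 63 bp in a KO list. Settings of the caller, depth and the line cannot be told apart as sources of this difference, which bears on widths and on the splitting of peaks.

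Starts came from the rule for choosing members, and groups from sample titles. Positions are 1-based. Ranks give tied scores the smallest number. Peaks sharing 1 bp or more made up regions across the lists, and each region took the highest peak of each list. Widths and ranks were tested on the log2 scale. Window lookup and region building were checked on 20 simulated pairs of lists of 200 and 800 peaks and were right in 20. Elements were sought by exact letters on both strands. Regions named as alike in rank were the 3 with the smallest mean absolute log2 rank difference. Members, tests and lists were chosen with earlier results of these data known. Python 3.11.15, numpy 2.4.6, pandas 2.3.3 and matplotlib 3.10.9 were used.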

Additional observations from a re-analysis of the deposited data

How the results depend on the processing

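Peak presence at both starts (6 of 6 libraries each) and absence at the long start (0 of 6) were the same with windows of 1, 2 and 10 kb, with the peak centre within 5 kb, with scores of at least 100 and with peaks closer than 1000 bp joined. The comparisons of width, centre and rank between the lines had p-values of 0.333 or more in every setting that kept to heat shock, where no smaller value was possible. With all 3 KO against all 3 WT libraries, heat shock and untreated together, the exact permutation p was 0.1 for both widths and for the HSP90AB1 centre. That is the smallest that 3 against 3 can give. The same test gave 0.2 or more for the HSP90AA1 centre and for both ranks. Ranks as a percent of list length differed by −4.22 (HSP90AA1) and −3.72 (HSP90AB1) on the log2 scale, which the longer KO lists set. The replicate block, pairing libraries by number, left the mean differences at −0.85 and −2.05 for log2 width, −37.25 and −614 bp for the centre and −0.50 and 0.00 for log2 rank; numbers are not known to pair the libraries, and 2 pairs cannot give an exact p under 0.5. Without each heat shock library in turn, log2 width differences were −0.97 to −0.73 (HSP90AA1) and −2.27 to −1.84 (HSP90AB1). HSP90AA1 centres differed by −74.5 to 0 bp and log2 ranks by −0.79 to −0.21, the ends being set by KO heat shock replicates 1 and 2. The mean log2 ratio of HSP90AA1 to HSP90AB1 scores was 0.38 to 0.61 without each library (exact permutation p = 0.0625 each, the smallest for 5 libraries), 0.65 over the 4 libraries with untied scores (p = 0.125, exact, also the smallest) and, chosen after seeing the data, 0.32 with both HSP90AB1 peaks summed (p = 0.281, exact). As a difference of log2 ranks it was 1.67 (exact permutation p = 0.0312), with tied HSP90AA1 ranks given the smallest number of the tie. With only bases before the start, 0.441% of RefSeq windows held a 3-unit element and 11.6% a 2-unit match. Unknown depth limits every comparison of scores across lists.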
